A study of Tupaia belangeri with 2 samples.

Results

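TTR, CLIC6 and FOLR1 are 3 genes that choroid plexus epithelium is known for, and they are described here across the cells of the tree shrew embryo brain. They were chosen by name in the annotation, where 6 of 23975 gene models bear these 3 names. The data are 2 libraries of single cells, 1 from the entire brain of each of 2 tree shrew embryos (Tupaia belangeri) aged between 4 and 5 weeks after conception, without any treatment or genetic change. Both embryos belong to 1 condition, so there was no group to compare other than the cell groups within them (n = 2 embryos). The dura mater and blood vessels had been taken off before the tissue was digested with papain and the debris spun out, which limits what the suspension can tell of cells at the brain's surface. In the droplet method used, each captured transcript carries a unique molecular identifier (UMI), and the authors deposited the number of UMIs per gene model and cell barcode as raw counts.

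The choroid plexus is a folded epithelium inside the brain ventricles that secretes cerebrospinal fluid and carries hormones, vitamins and ions between blood and fluid. TTR encodes transthyretin, the carrier of thyroid hormone and, with retinol-binding protein, of retinol, which this epithelium secretes into the fluid. FOLR1 encodes folate receptor alpha, which takes up folate and moves it across the epithelium, and CLIC6 encodes a member of the chloride intracellular channel family.

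The TTR model held 26762 UMIs in embryo 1 and 33075 in embryo 2 over all barcodes. The FOLR1 model held 123 and 227 UMIs. The CLIC6 model that was used held 26 and 27 UMIs. It was told from the other 3 models of that name by its neighbours KCNE1 and RCAN1, which also neighbour CLIC6 in the RefSeq annotation of the TupChi_1.0 assembly, whereas the others shared 0 neighbours with it. Those 3 models held 6 UMIs in all, of which 4 and 2 were in embryo 2, and they were left out. TTR shared 3 neighbours with the RefSeq order (B4GALT6, DSG2 and DSG3) and FOLR1 also 3 (ANAPC15, INPPL1 and LAMTOR1). Beside FOLR1 lie 2 models named FOLR3, with 7 and 24 UMIs over all barcodes, and reads of these related genes could have been split between the models. A level is given below as UMIs per 1000000 UMIs of a cell group (CPM). Where UMIs of different genes are set side by side, as in ratios to TTR, they describe counts. They were not taken as differences in expression between genes.

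The libraries held 9241 and 9685 barcodes with 41868023 and 38077767 UMIs. Cells with at least 200 genes numbered 8408 and 9327, with a median of 3539 and 3169 UMIs, and 18 barcodes occurred in both libraries, with 828 TTR UMIs in all, and 1 of them was in the cluster described next. Haemoglobin took 28.7% of the UMIs of the cells in embryo 1 and 13.6% in embryo 2. The cells were clustered without the 3 genes and without the lists of retinol, folate and chloride channel genes, which gave 15 clusters. Clusters were named "-like" after cell types with at least 3 markers. Each marker had to be detected in at least 10% of the cells and be at least 2 times higher than elsewhere. A name was withheld where types tied, where the leading genes were of another type, or where UMIs were low. Cluster 5 had 5 granule neuron markers but stayed unnamed, as its leading genes were of another type.

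The choroid-type cells were in cluster 14, which held 153 cells, 81 of embryo 1 (0.963% of its cells) and 72 of embryo 2 (0.772%). It was picked because it had the most choroid plexus markers among 16 that do not include the 3 genes. Of the 16, 14 were named in the annotation. Only 2 of these reached the limits for a name, HTR2C, a serotonin receptor, and TRPM3, a cation channel. The same number of ependymal markers did, RSPH1 and TEKT1, both of motile cilia. The cluster therefore received no cell type name and is called by its number. Its leading genes were TTR, FOLR1, C2ORF40 and RSPH1. Its cells were shallow, with a median of 1216 UMIs and 477 genes in embryo 1 and of 1349 UMIs and 541 genes in embryo 2. Haemoglobin took 6.70% of its UMIs in embryo 1 and 0.0860% in embryo 2.

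All 3 genes had their highest level in cluster 14 in both embryos. TTR stood at 106758 CPM in embryo 1 and 138848 CPM in embryo 2 (mean 122803 ± 22691, SD, n = 2), and it had more UMIs there than any other gene. In the cells of all other clusters together TTR stood at 140 and 110 CPM (125 ± 20.9), 764 and 1261 times lower. FOLR1 stood at 481 and 946 CPM in cluster 14 (713 ± 329), from 96 and 198 UMIs, and at 0.684 and 0.815 CPM outside it. FOLR1 was thus 703 times higher in the cluster in embryo 1 and 1160 times in embryo 2. CLIC6 rested on few molecules, with 23 UMIs or 115 CPM in embryo 1 and 19 UMIs or 90.8 CPM in embryo 2 (103 ± 17.3). Outside the cluster CLIC6 had 3 UMIs of embryo 1 and 8 of embryo 2 in 17582 cells, or 0.0790 and 0.225 CPM. Since clusters were built from the same cells and the genes were chosen as choroid plexus genes, these levels are a description and were not tested.

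**Figure D1:**
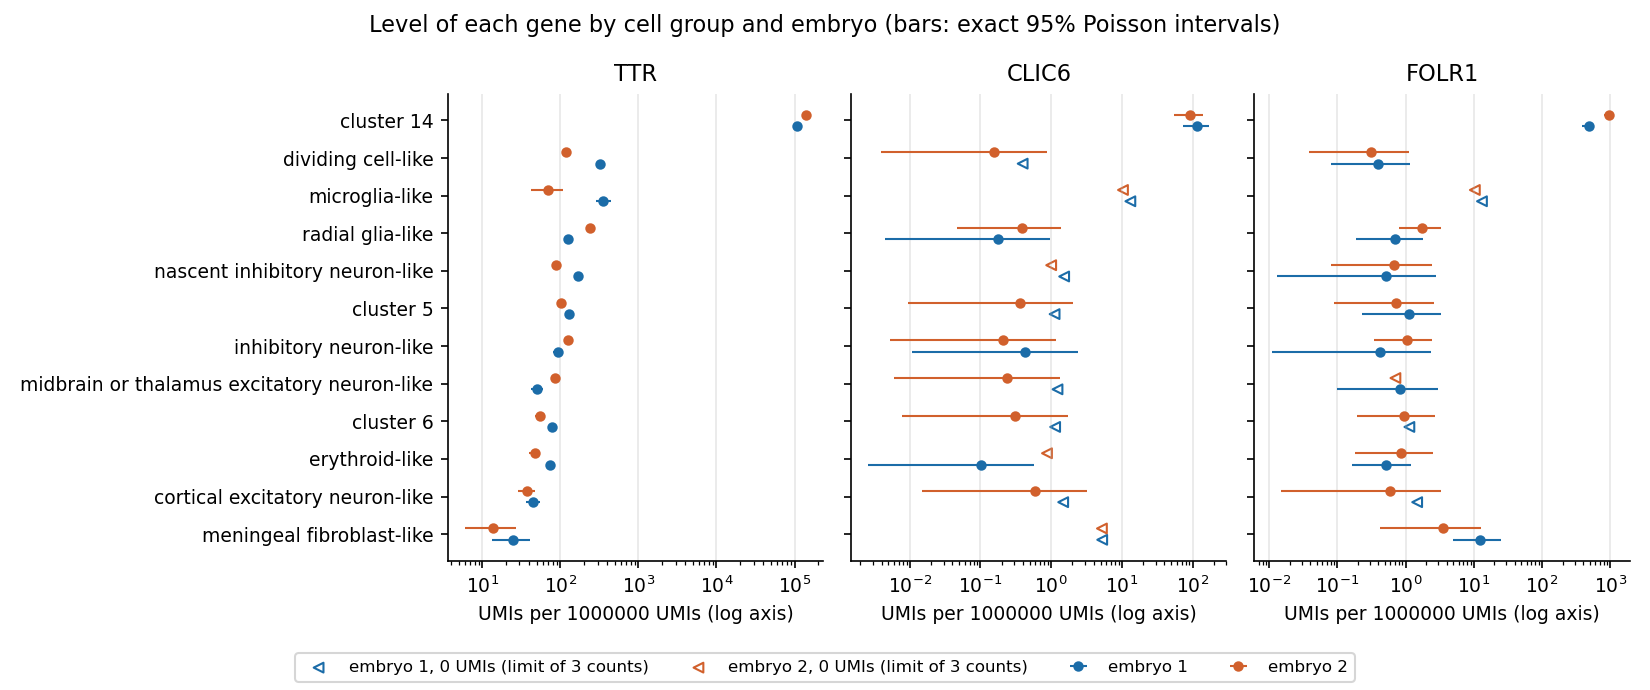
Levels of TTR, CLIC6 and FOLR1 (x axis, UMIs per 1000000 UMIs, log axis) in each cell group (y axis) of embryo 1 (blue) and embryo 2 (orange). Bars are exact 95% Poisson intervals, which cover counting error only, and open triangles mark groups with 0 UMIs at the limit of 3 counts. Cluster 14 lies at 106758 and 138848 CPM for TTR, and the other 11 groups lie between 13.9 and 356 CPM.

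Within cluster 14, TTR was found in nearly every cell and varied widely. It was counted in 78 of 81 cells of embryo 1 and in 68 of 72 of embryo 2. The lowest count was 0, the median 149 and the highest 3947 UMIs per cell in embryo 1, and 0, 156 and 4156 in embryo 2. The middle range of the cells ran from 67 to 302 UMIs in embryo 1. As a share of a cell's own UMIs, TTR had a median of 11.2% and a highest value of 26.9% in embryo 1, and of 10.7% and 49.2% in embryo 2. The medians of both embryos were close, and the cells spread over a far wider range than the embryos did. Over both embryos 11 cells had at least 1000 TTR UMIs, and 13 cells had under 10. In those 13 cells the motile cilia list stood at 906 CPM, from 25 UMIs in 8 cells, against 627 CPM in the 140 cells with more TTR. CLIC6 was at 0 in the 13 cells and FOLR1 at 3 UMIs. At a median of 981 UMIs in so few cells, the 0 does not show that CLIC6 was absent.

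FOLR1 and CLIC6 were seen in fewer cells of cluster 14 than TTR, and each such cell also held TTR. FOLR1 was counted in 35 cells of embryo 1 (43.2%) and 30 of embryo 2 (41.7%), with up to 31 and 35 UMIs in 1 cell. CLIC6 was counted in 16 cells (19.8%) and 13 cells (18.1%), with at most 4 UMIs. All 3 genes were counted in 14 of the 153 cells. The share of UMIs from FOLR1 went with the share from TTR across the cells, with Spearman's rho of 0.434 over 81 cells and 0.508 over 72. Against the total UMIs of the cell, rho of the TTR share was −0.0094 and −0.0568. Against the UMIs of the motile cilia list it was −0.0751 and −0.106. These correlations are across cells of 1 library each and are descriptions.

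**Figure D2:**
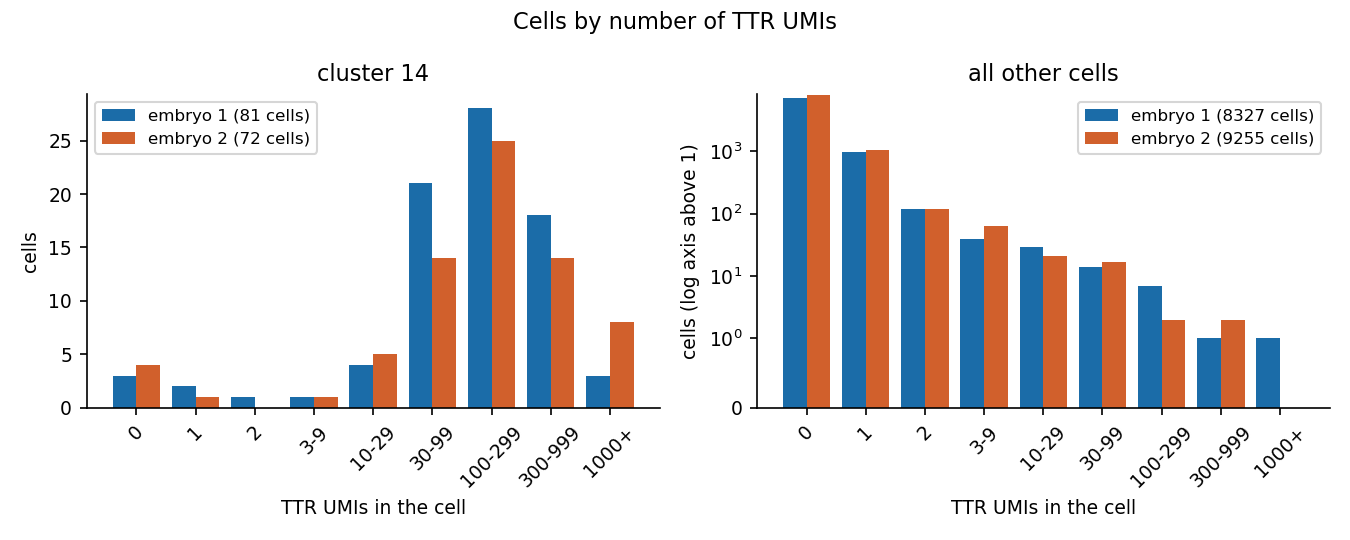
Number of cells (y axis, linear on the left and logarithmic above 1 on the right) by the number of TTR UMIs in the cell (x axis), for cluster 14 and for all other cells of embryo 1 (blue) and embryo 2 (orange). In cluster 14 the bin that starts at 100 UMIs holds the most cells, 28 and 25, while 15142 of the 17582 other cells had 0 TTR UMIs and 2008 had 1.

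Outside cluster 14, TTR was thinly spread over most groups and concentrated in a few cells. It was counted in 2440 of 17582 cells (13.9%), and 2008 of these cells (82.3%) held a single TTR UMI. A further 94 cells (0.535%) held at least 10 TTR UMIs, and these cells had 6263 of the 9225 TTR UMIs outside the cluster (67.9%). Of these, 13 cells with at least 100 TTR UMIs had 41.2% of the TTR UMIs. The highest count outside was 1264 UMIs in a dividing cell-like cell of embryo 1, and in embryo 2 it was 512 UMIs in a radial glia-like cell. Without the cells of at least 10 TTR UMIs, a limit chosen after the counts had been seen, the level outside fell from a mean of 125 to 40.6 CPM.

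By group, the mean level of TTR outside cluster 14 ran from 219 ± 145 CPM in dividing cell-like cells down to 19.3 ± 7.54 in meningeal fibroblast-like cells (SD, n = 2). Microglia-like cells followed dividing cells at 212 ± 203 CPM, with 356 in embryo 1 and 69.1 in embryo 2, and 69 of the 81 TTR UMIs of embryo 1 came from 1 cell. Radial glia-like cells stood at 181 ± 78.3 CPM, nascent inhibitory neuron-like cells at 129 ± 57.7, the unnamed cluster 5 at 115 ± 19.0 and inhibitory neuron-like cells at 110 ± 22.4. Then came midbrain or thalamus excitatory neuron-like cells at 68.1 ± 25.1, the unnamed cluster 6 at 67.5 ± 16.6, erythroid-like cells at 60.7 ± 19.7 and cortical excitatory neuron-like cells at 41.3 ± 5.65 CPM. In this order the embryos' values overlapped between neighbours except in 4 places, between cluster 14 and dividing cells, between inhibitory neuron-like and midbrain or thalamus excitatory neuron-like cells, between erythroid-like and cortical excitatory neuron-like cells, and between the latter and meningeal fibroblast-like cells. The embryos did not rank the groups alike, and the highest group outside cluster 14 was microglia-like cells in embryo 1 and radial glia-like cells, at 237 CPM, in embryo 2. In dividing cell-like cells of embryo 1, at 321 CPM, 1 cell gave 51.8% of the TTR UMIs.

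The share of cells with a TTR UMI was similar in most groups outside cluster 14 and lower in meningeal fibroblast-like cells of embryo 2. Red cell precursors were assumed to lack TTR, which was not tested. In embryo 1, 14.8% of erythroid-like cells (95% interval 12.7 to 17.1%, exact Clopper-Pearson) held a TTR UMI, at a median depth of 10670 UMIs. In embryo 2, 12.2% (9.06 to 16.0%) did, at 11509 UMIs. The other groups of embryo 1 lay between 9.71 and 15.3%, at median depths of 1380 to 4738 UMIs. In embryo 2 they lay between 2.06 and 17.2%, at 2059 to 4857 UMIs. The 2 groups above the erythroid-like interval in embryo 2 were radial glia-like cells, at 16.7% (14.6 to 19.0%), and microglia-like cells, at 17.2% (8.90 to 28.7%), and both intervals overlapped it. Meningeal fibroblast-like cells of embryo 2, at 2.06% (0.251 to 7.25%), lay wholly below it. Whether the TTR UMIs of any of these groups came from background or from expression was not tested. When each cell was thinned to 1000 UMIs, the shares outside cluster 14 were 1.22 to 13.5% and the groups lay further apart. Erythroid-like cells then stood at 4.08 and 4.55% in the embryos, and inhibitory neuron-like cells above them at 7.77 and 7.41%. Nascent inhibitory neuron-like cells stood at 6.13 and 7.06%, and microglia-like cells at 8.33 and 13.5% with 60 and 52 cells. The groups that stood highest after thinning were thus those of the lowest median depth. In cluster 14 they were 98.1 and 92.9%, with 28 and 30 shallower cells left out.

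The count of TTR per cell changed little with the depth of the cell. Among cells outside cluster 14 that were neither erythroid-like nor held 10 or more TTR UMIs, the mean was 0.149 TTR UMIs per cell in embryo 1 at 500 to 1000 total UMIs and 0.177 at 16000 or more. In embryo 2 the mean was 0.126 and 0.160. Over the same steps the TTR level fell from 211 to 6.04 CPM in embryo 1 and from 167 to 5.76 CPM in embryo 2. Among these cells, differences in CPM between the steps thus went with depth at a near constant count per cell. With the cells of 10 or more TTR UMIs kept, the levels of the groups did not follow depth. The highest mean outside cluster 14 was then 219 CPM in dividing cell-like cells, at median depths of 4738 and 4857 UMIs. Barcodes with under 200 genes, which were not clustered, held a mean of 0.164 and 0.166 TTR UMIs, again without those of 10 or more. That limit left out 0 of these barcodes in embryo 1 and 2 in embryo 2. The median depth of these barcodes was 2980 and 6845 UMIs, against 3539 and 3169 in the clustered cells, so they were not shallow.

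**Figure D3:**
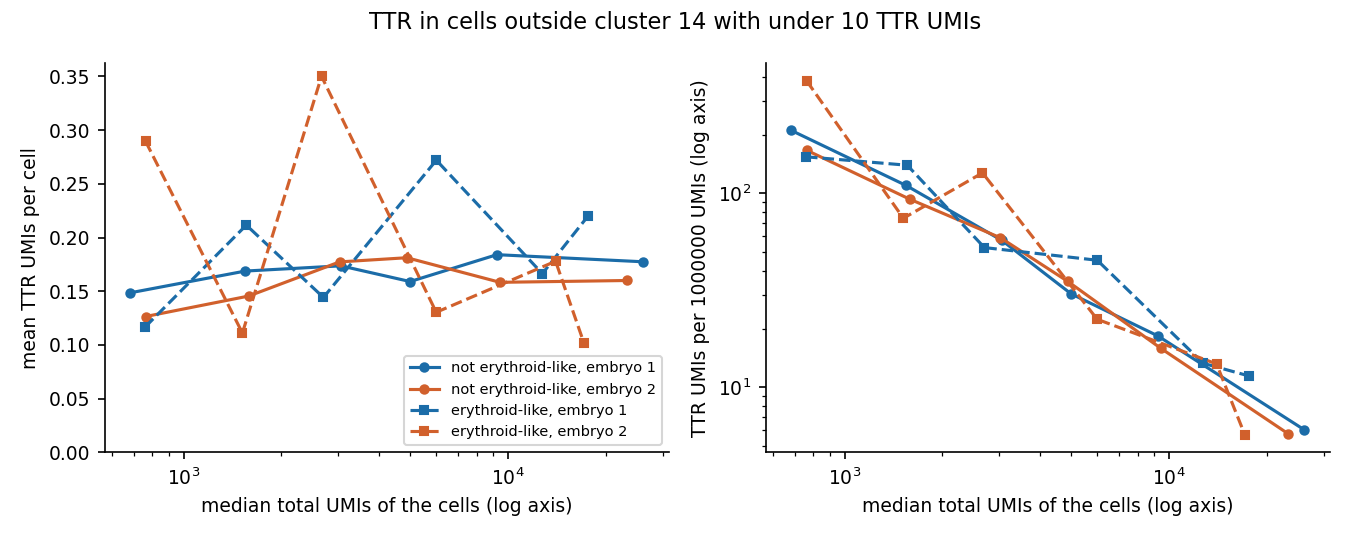
Mean TTR UMIs per cell (left, y axis) and TTR level (right, y axis, UMIs per 1000000 UMIs, log axis) against the median total UMIs of cells in steps of depth (x axis, log axis), outside cluster 14 and without cells of 10 or more TTR UMIs. Circles with solid lines are cells that were not erythroid-like, squares with dashed lines erythroid-like cells, blue embryo 1 and orange embryo 2. The solid lines stay between 0.126 and 0.184 UMIs per cell while the level falls.

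FOLR1 and CLIC6 were close to absent outside cluster 14. FOLR1 had 55 UMIs in 39 of the 17582 cells, and CLIC6 had 11 UMIs in 11 cells. The highest FOLR1 level outside was that of meningeal fibroblast-like cells, with 7 UMIs in embryo 1 (12.3 CPM) and 2 in embryo 2 (3.48 CPM), each from a single cell. Microglia-like cells had 0 FOLR1 UMIs in both embryos, which allows up to 13.2 and 10.4 CPM. CLIC6 was at 0 in 8 of the 11 groups in embryo 1 and in 4 in embryo 2, and no group had more than 2 UMIs in an embryo. Of the 39 cells with FOLR1, 18 held no TTR UMI.

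FOLR1 and CLIC6 were also set against TTR, as ratios of the UMIs summed over a group of cells. In cluster 14 there were 4.50 FOLR1 UMIs per 1000 TTR UMIs in embryo 1 (exact 95% binomial interval 3.65 to 5.50) and 6.81 in embryo 2 (5.89 to 7.83). In all other cells together the ratio was 4.90 (3.20 to 7.19) and 7.40 (4.95 to 10.7), so it overlapped that of the cluster within each embryo. These sums hold cells with few and with many TTR UMIs. Cells outside with under 10 TTR UMIs had 12.9 (7.62 to 20.5) in embryo 1 and 10.2 (5.82 to 16.6) in embryo 2. The interval of embryo 1 lay above that of the cluster, but 7 of its 18 FOLR1 UMIs came from 1 cell. The interval takes UMIs as independent and does not cover this. Cells with 10 or more had 2.04 (0.882 to 4.03) and 5.53 (2.94 to 9.48). The split was made on TTR counts, which the ratio also holds, so it is a description. The sums outside did not come from the same cells. In embryo 1, 17 of the 26 FOLR1 UMIs outside lay in cells with 0 TTR UMIs, and 7 of the 26 in 1 meningeal fibroblast-like cell. In embryo 2, 8 of the 29 lay in cells with 0 TTR UMIs. CLIC6 had 1.08 (0.684 to 1.62) and 0.654 (0.394 to 1.02) UMIs per 1000 TTR UMIs in cluster 14. Outside, CLIC6 had 0.565 (0.117 to 1.65) and 2.04 (0.881 to 4.03), and both intervals overlapped those of the cluster.

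**Figure D4:**
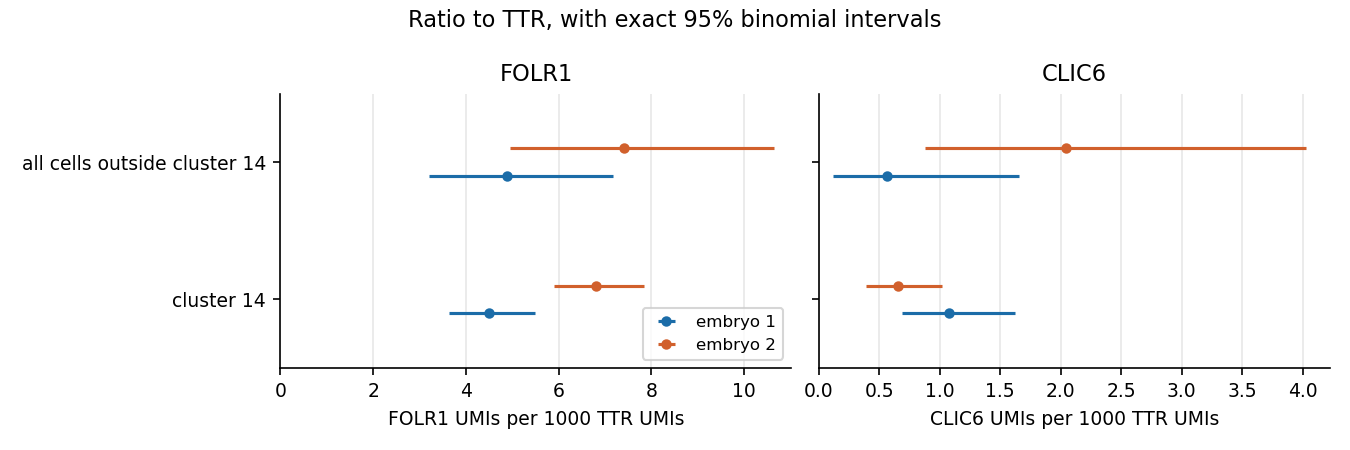
FOLR1 (left) and CLIC6 (right) UMIs per 1000 TTR UMIs (x axes) in cluster 14 and in all cells outside it (y axis), for embryo 1 (blue) and embryo 2 (orange). Bars are exact 95% binomial intervals, for counting error only. For FOLR1 the values of embryo 1, at 4.50 and 4.90, and of embryo 2, at 6.81 and 7.40, overlap between the groups.

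The 94 cells outside with at least 10 TTR UMIs had higher sums of choroid plexus and cilia markers than the other cells outside, from few UMIs. Their sums of transport genes were similar. They were chosen by their TTR counts, so the values are descriptions. Their median was 4697 UMIs in embryo 1 and 3333 in embryo 2, and TTR took a median of 0.564% and 0.858% of a cell's UMIs, against 11.2% and 10.7% in cluster 14. FOLR1 was counted in 14 of the 94 cells and CLIC6 in 4. The choroid plexus marker list without the 3 genes stood at 34.1 and 26.8 CPM in them, against 290 and 353 CPM in cluster 14 and 11.7 and 12.04 CPM in the cells with under 10 TTR UMIs. The motile cilia list stood at 51.2 and 42.9 CPM in them, against 11.9 and 13.9 CPM. In the 94 cells the choroid plexus sums rested on 10 UMIs in embryo 1 and 5 in embryo 2, and the cilia sums on 15 and 8. No interval was computed for these sums, so a higher level was not tested. The fluid and ion transport list stood at 167 and 182 CPM in the 94 cells, against 153 and 194 CPM in the cells with under 10. Of the 94 cells, 20 (21.3%) were among the cells with the highest doublet scores (Scrublet), against 7.16% of all cells outside cluster 14. The part of droplets with more than 1 cell in these counts was not tested.

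TTR was compared between classes outside cluster 14 with sums of UMIs per embryo and class in edgeR's quasi-likelihood test, with embryo as a block and Benjamini-Hochberg adjustment over 10209 genes. FOLR1 and CLIC6 had too few UMIs to pass its gene filter. The 4 neuron-like classes served as the base through their mean, and changes are on a log2 scale. TTR was higher in dividing cell-like cells, by 1.56 (SE 0.183, adjusted p = 9.5e-11), and in radial glia-like cells, by 1.28 (SE 0.196, adjusted p = 1.1e-07). On its own, embryo 1 gave 2.29 for dividing cells and 0.86 for radial glia, and embryo 2 gave 0.73 and 1.72. The SE of the edgeR fit thus does not measure the spread between the embryos. DESeq2 on the same sums gave 1.53 (SE 0.555, adjusted p = 0.0118) for dividing cells and 1.40 (SE 0.555, adjusted p = 0.0241) for radial glia. Without the embryo block, edgeR gave adjusted p = 5.8e-05 and 0.0011. In erythroid-like cells the change in the edgeR fit with the block was 2.95 (SE 0.253, adjusted p = 7.1e-15). In microglia-like cells it was 1.52 (SE 0.562, adjusted p = 0.0314), with 2.40 in embryo 1 and 0.05 in embryo 2 on their own. In meningeal fibroblast-like cells TTR was lower, at −1.90 (SE 0.804, adjusted p = 0.0469). That class also carried 5 endothelial markers (CDH5, EGFL7, FLT1, KDR and PECAM1), and at a clustering resolution of 1.0 there were separate clusters of 113 meningeal fibroblast-like and 86 endothelial-like cells. Of all genes tested, 62.8% passed in dividing, 60.2% in radial glia, 35.5% in erythroid, 32.5% in microglia and 47.5% in meningeal fibroblast-like cells, so that a passed test was common for any gene.

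These differences changed with the cells kept and with the scaling. Without the cells of at least 10 TTR UMIs, the change in dividing cells turned to −0.65 (adjusted p = 1.4e-06 in edgeR). That in radial glia was 0.02 (adjusted p = 0.883) and that in microglia 0.54 (adjusted p = 0.147). Cells were left out here by the TTR counts that were then compared, so these values are descriptions and not valid tests. Without the highest Scrublet scores the change in microglia was 0.0048 and that in dividing cells 0.62. Erythroid-like cells had scaling factors of 0.131 and 0.144 against 1.15 to 1.46 in the other classes, and with library totals alone their change was −0.39 (adjusted p = 0.0877), while the median of all genes was −3.45. With at least 1000 genes per cell it was −0.30 (adjusted p = 0.911 in edgeR). The lower value of meningeal fibroblast-like cells kept its direction, at −1.21 without the cells of at least 10 TTR UMIs and −2.08 with library totals. With at least 1000 genes per cell this value was −2.49. Their adjusted p was 0.0547 without the embryo block, 0.0637 with RLE size factors and 0.0851 at a clustering resolution of 1.0, all in edgeR.

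FOLR1 entered the edgeR test at resolution 1.0 and without the gene filter, and it passed there in 2 classes that rested on few UMIs. In meningeal fibroblast-like cells it was higher by 4.73 at resolution 1.0 (SE 0.941, adjusted p = 2.7e-05) and by 4.09 without the filter (SE 0.933, adjusted p = 7.3e-05). At the resolution of 0.5 the 9 FOLR1 UMIs of that class came from 1 cell in each embryo. In erythroid-like cells, with 8 FOLR1 UMIs and the low scaling factors given above, it was higher by 3.51 (SE 0.930, adjusted p = 0.0018) and by 3.73 (SE 0.969, adjusted p = 0.00096). Of all genes tested in these fits, 38.9% and 29.9% passed in meningeal fibroblast-like and 34.4% and 20.3% in erythroid-like cells.

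**Figure D5:**
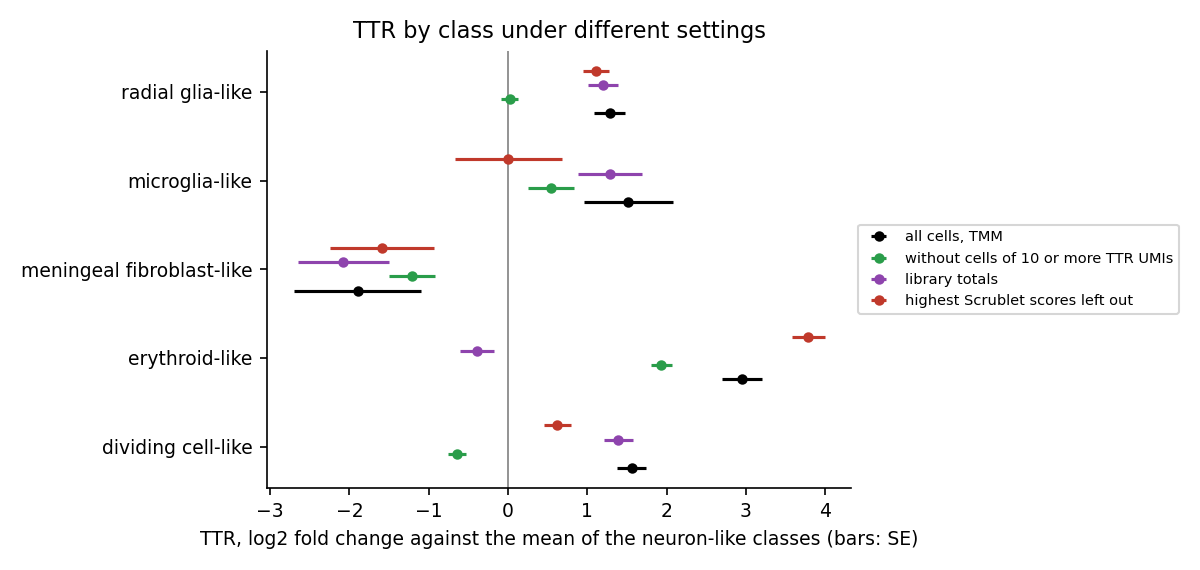
TTR log2 fold change of each class, with the mean of the 4 classes of neurons as the base (x axis; points with SE as bars) for 5 classes (y axis) under 4 settings of the edgeR fit, given by colour. Dividing cell-like cells lie at 1.56 with all cells and at −0.65 without cells of 10 or more TTR UMIs, and erythroid-like cells at 2.95 and, with library totals, at −0.39.

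Genes whose level over the 15 clusters was most like that of the 3 genes included several genes of cilia. The measure was Pearson's r of log2(CPM + 1) over 30 points, 1 per cluster and embryo, which share libraries and depth, and it is a description. Only genes with at least 100 UMIs were ranked, which leaves CLIC6 out of the lists of the other members, though its r was 0.918 with TTR and 0.933 with FOLR1. RSPH1, FOLR1, PVALB, CFAP45 and ROPN1L passed this limit only with their UMIs in cluster 14, 136 of 209 for RSPH1. A gene high in cluster 14 and low elsewhere can get a high r from the points of that cluster alone. Of the genes ranked, nearest to TTR were F183A (0.874), RSPH1 (0.872), a radial spoke protein of motile cilia, SPEF2 (0.862), a protein of cilia and sperm tails, FOLR1 (0.840) and ADAM8 (0.834), a membrane protease. Nearest to CLIC6 were FOLR1 (0.933), RSPH1 (0.922), TTR (0.918), ROPN1L (0.878) and SPEF2 (0.849). Of the genes ranked, nearest to FOLR1 were CFAP45 (0.935), a protein of the ciliary axoneme, ROPN1L (0.920), RSPH1 (0.914), C2ORF40 (0.890) and PVALB (0.885), a calcium-binding protein. RSPH1 stood at 330 ± 141 CPM in cluster 14 and C2ORF40 at 1639 ± 1093 CPM.

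Other genes of the pathways of the 3 genes were read from fixed lists, by whether a gene with at least 100 UMIs was 2 times higher or lower in cluster 14 than outside in both embryos. Of 9876 such models, 6.16% were higher and 27.7% lower, and their median log2 difference was −0.75. Of 6 genes of retinol and thyroid hormone carriage, 1 was higher, LRP2, an endocytic receptor, with 9 UMIs in the cluster, and 2 were lower, among them THRA, a thyroid hormone receptor. The median over the 6 genes was −0.63. Of 7 folate genes, 1 was higher, ALDH1L1, an enzyme of folate metabolism, with 4 UMIs in the cluster, 0 were lower, and the median was −0.09. ALDH1L1 had 102 UMIs in all and passed the limit of 100 only with those of the cluster. TYMS, thymidylate synthase, stood at 31.9 against 16.5 CPM. Of the chloride intracellular channel family, CLIC1 was higher, at 144 against 65.3 CPM, and CLIC4 lower, at 7.28 against 19.9 CPM, while CLIC2 and CLIC5 had 0 UMIs in the cluster.

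Genes of transport, cilia, secretion and tissue origin were counted in the same way. Of 9 genes of fluid and ion transport, 5 were higher, among them SLC4A10, SLC4A2, SLC12A2 and TRPM3, with a median of 1.59 over the 9. TRPM3 was also a marker by which the cluster was picked. SLC4A2, a chloride and bicarbonate exchanger, stood at 167 against 11.6 CPM, and SLC12A2, a sodium, potassium and chloride cotransporter, at 70.0 against 14.0 CPM. Of 5 motile cilia genes, all 5 were higher, with a median of 4.06, and TEKT1 stood at 130 against 3.95 CPM. RSPH1, another of the 5, passed the limit of 100 UMIs only with those of the cluster, 136 of its 209. Of 12 models of genes that choroid plexus is known to secrete, 6 were higher, named IGFBP2, SPARC, PLTP, ENPP2, WNT5A and IGF2. A further model named WNT5A was not called higher, at 2.39 against 1.63 CPM with 1 UMI in the cluster. PCOLCE was counted as lower, and the median over the 12 models was 0.77. IGF2, a growth factor of the fluid, stood at 58.6 against 4.07 CPM. Of 6 models of junction genes, some of them of the same gene, 1 was higher, EPCAM, at 63.1 against 1.34 CPM. The median over the 6 models was −0.39. EPCAM passed the limit of 100 UMIs only with the 26 of its 125 UMIs that lay in the cluster. Of 5 roof plate and hem genes 1 was higher, BMP4, and 2 were lower, HES1 and BMP5, with a median of 0.23. Since the clusters were built from many of these genes, none of these counts was tested.

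Other tissues that make transthyretin were checked by their own genes. The hepatocyte and yolk sac list has 15 genes, of which 10 were named in the annotation, and only VTN had at least 100 UMIs. All 10 models had 0 UMIs in cluster 14, and the list summed to 2.40 and 2.84 CPM outside. Both sums lie below the limit of 3 counts in the cluster, so the 0 does not show a lower level there than outside. The retinal pigment epithelium list summed to 65.1 and 71.7 CPM in the cluster and 4.45 and 4.86 outside. Of its 9 models, 3 had a UMI there. MITF, a transcription factor of pigment cells and other cells, stood at 63.5 CPM in the cluster, DCT and PMEL had 1 UMI each, and the pigment enzyme TYR was at 0.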

How the data were processed

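Whole-brain cells of 2 embryos were measured with 1 library each. According to the methods, the authors checked reads with fastp, ran cellranger 3.1.0 with default settings against the TS_2.0 assembly and deposited raw UMI counts per gene model and barcode, without normalization. No coordinates were used, since the RefSeq table is of another assembly (TupChi_1.0).

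From these counts, cells with at least 200 genes (17735 of 18926 barcodes) were scaled to 10000 UMIs, and 2000 variable genes, 20 components, 20 neighbours and leidenalg 0.10.2 at resolution 0.5 gave the clusters (Python 3.11.15, scikit-learn 1.9.0). Doublets were kept. Scrublet (scanpy 1.11.5) set a threshold that called 5 and 7 cells, so the alternative left out the 566 and 696 highest scores, at 0.8% per 1000 cells. UMIs were summed per embryo and group. Poisson and binomial intervals (95%) and limits of 3 counts cover counting error only. The 9 named classes, each of 20 cells or more in both embryos, were fitted with edgeR 4.0.16 (TMM, filterByExpr, embryo as a block because the classes of an embryo come from 1 animal, threshold 0.05; R 4.3.3). On simulated data, the fit recovered 100% of 200 genes changed 4-fold in each comparison, and 3.85 to 9.09% of calls were false. The simulated classes shared a common profile, with no embryo effect and no single cells of high counts. The simulation thus does not cover the scaling and the high cells that changed the TTR results. Log2 differences of lists used a pseudocount of 1 CPM.

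The genes named are the 3 genes and all models of their names, the 5 genes most like each, by Pearson's r among named models with at least 100 UMIs, and from each list the genes with the highest levels in cluster 14. Others, such as the genes past 2-fold, were chosen after their values were seen, and some genes of the lists are not reported here. The members and lists were chosen with earlier results of these data known. Alternatives were at least 1000 genes, resolution 1.0, 30 components, Scrublet, means over cells, cells with haemoglobin left out, RLE size factors, library totals, DESeq2 1.42.0, no gene filter, no block, and the embryos left out singly.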

Additional observations from a re-analysis of the deposited data

Results flagged for a closer look

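TTR was also counted in barcodes outside the clustering, those with under 200 genes, which the comparisons of cell groups did not use. These 833 barcodes of embryo 1 held 137 TTR UMIs and the 358 of embryo 2 held 92, above the limit of 3 counts that a count of 0 allows. Their median depth was 2980 and 6845 UMIs. TTR was in 13.9% and 14.8% of them, at 37.3 and 40.1 CPM, and in embryo 2 a single barcode had 23 of the 92 UMIs. FOLR1 had 1 UMI in these barcodes and CLIC6 had 0.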

How the results depend on the processing

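The levels in cluster 14 moved by less than the spread between the embryos in 14 of 15 alternatives that kept both embryos. The exception was CLIC6 as a mean over cells, at 121 CPM. The level of TTR outside it moved in 3 of 7, to 90.4 CPM without the highest Scrublet scores, 146 as a mean over cells and 40.6 without the cells of at least 10 TTR UMIs, an alternative chosen after seeing the data. With each embryo left out, the level in cluster 14 was 106758 to 138848 CPM for TTR, 90.8 to 115 for CLIC6 and 481 to 946 for FOLR1, and TTR outside was 110 to 140. Of 45 tested values of the TTR log2 fold change under the alternatives, 36 kept direction and call, among them dividing cells without the highest Scrublet scores, at 0.62 against 1.56. Reversed were dividing cells without the cells of at least 10 TTR UMIs (−0.65) and erythroid-like cells with library totals (−0.39) and at 1000 genes or more (−0.30, adjusted p = 0.911 in edgeR). No longer past the threshold were meningeal fibroblasts with RLE size factors (−1.80), with no replicate block (−1.86) and at resolution 1.0 (−1.97), microglia without the highest Scrublet scores (0.0048) and without the cells of at least 10 TTR UMIs (0.54), and radial glia without those cells (0.022). The alternative without cells of at least 10 TTR UMIs selected cells by the TTR counts it then compared, so its calls are descriptions. Leaving out the block changed no other call of TTR. With each embryo left out, as values without a test, the range was 0.73 to 2.29 in dividing, 2.49 to 3.46 in erythroid, −2.29 to −1.53 in meningeal fibroblast, 0.05 to 2.40 in microglia and 0.86 to 1.72 in radial glia-like cells. The cause of these changes was not tested, apart from the cells and libraries left out. In erythroid-like cells the number of genes past the threshold was 3627, 9188 with library totals and 801 at 1000 genes or more, and 1651 of the 3627 were higher, against 204 of 9188 with library totals, 1908 of 3214 with RLE and 1941 of 3031 with DESeq2. In microglia-like cells 1684 of 3315 were higher, against 1487 of 3882 with library totals, 1865 of 3172 with RLE and 2030 of 3052 with DESeq2. The 42 CLIC6 UMIs in cluster 14 limit the precision of its level.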
